A study of Equus asinus with 6 samples.

Results

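Mitochondrial carriers of the SLC25 family were followed in RNA of the back muscle longissimus dorsi from Guangling donkeys, a breed of Equus asinus, at an age of 24 months. The study set muscle of high intramuscular fat (IMF) content, 3 libraries, against muscle of low IMF content, 3 libraries, to ask which transcripts differ with the fat stored within the muscle. No treatment or genotype is named. The sources used here give neither the measured fat content nor the sex of the donkeys nor a batch, nor do they say that each library is a different animal, so the p-values cover variation among these 6 libraries, which may be technical. The members are the rows of the deposited count table whose gene name is SLC25A followed by a number, and there are 43 of 20873 rows. The names alone chose them, with no measured value. In the Pfam domain column deposited with the table, 37 of the 43 rows carry the mitochondrial carrier domain. Of the other 6, SLC25A12, SLC25A13, SLC25A23 and SLC25A25 are listed with a calcium-binding domain instead, and SLC25A1 and SLC25A47 with neither. The family also has rows outside the name rule. These are the uncoupling proteins UCP1 to UCP3, MTCH1 and MTCH2, and 3 rows named only by a LOC number, 1 of which is SLC25A24 according to its gene ID in RefSeq.

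The inner mitochondrial membrane is closed to charged metabolites, and SLC25 proteins are the nuclear-encoded transporters that move them across it. They exchange ADP for ATP, bring in phosphate for ATP synthesis, pass reducing equivalents between cytosol and matrix in the malate-aspartate shuttle, admit fatty acids as acylcarnitines, and carry cofactors, nucleotides, amino acids and iron. Skeletal muscle fibres are known for a high content of the ADP/ATP carrier SLC25A4 and of the phosphate carrier SLC25A3. A few relatives lie elsewhere: SLC25A17 in the peroxisome and SLC25A46 in the outer mitochondrial membrane.

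The libraries held 39052998 to 47494157 assigned reads in the high IMF group and 44313770 to 46360965 in the low IMF group. All 8 skeletal muscle markers examined, creatine kinase CKM and skeletal actin ACTA1 among them, were present in every library, with summed levels of 100748 to 171779 CPM in the high and 126181 to 174133 CPM in the low IMF libraries. CPM is the count relative to the library's total after adjustment by trimmed means (TMM), on the usual per-million scale. The libraries of a group were not alike. High IMF replicate 1 had a fast fibre level of -1.88, far below the other 5, where a level is the median over a list's genes of log2 CPM minus the gene's own mean over the 6 libraries. Low IMF replicates 2 and 3 were much closer to each other than any other pair. Their counts differed by a median chi-square of 1.93 per gene, against 9.56 to 27.5 for the other 14 pairs and 0.455 for sampling noise alone, so they were kept as separate libraries and also summed as an alternative.

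Carrier transcripts took 0.419 to 0.591% of all assigned reads in the high IMF libraries and 0.509 to 0.6295% in the low IMF libraries. Of the carrier reads alone, SLC25A4 held 38.9 to 45.4% in high and 47.3 to 56.1% in low IMF muscle, and SLC25A3 a further 18.96 to 22.9% and 16.9 to 21.1%. Levels between genes are compared in the authors' deposited FPKM, which divides by gene length. On that scale SLC25A4 measured 1521 ± 417 FPKM in high IMF muscle and 2118 ± 460.2 FPKM in low IMF muscle (SD, n = 3 each). SLC25A3 measured 649 ± 144 FPKM in high IMF muscle and 701 ± 27.04 FPKM in low IMF muscle. The next members by mean FPKM were SLC25A12 with 96.7 ± 32.1 FPKM in high IMF muscle and 93.8 ± 7.94 FPKM in low IMF muscle, then SLC25A6, SLC25A34, SLC25A11, SLC25A28, SLC25A20, SLC25A30 and SLC25A37. The tenth, SLC25A37, averaged 20.1 FPKM over the 6 libraries, and the lowest member that entered the test, SLC25A22, 0.395 FPKM.

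**Figure D1:**
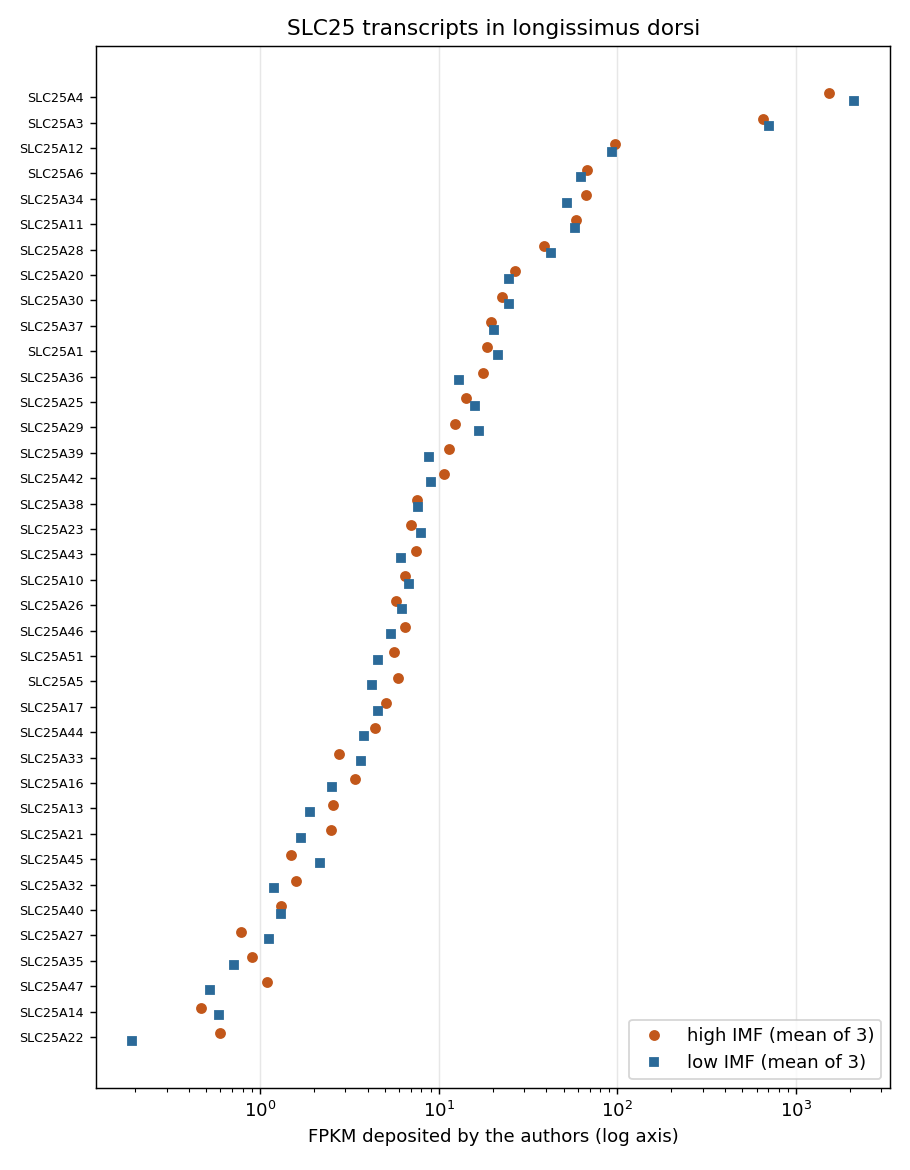
Level of 38 of the 39 tested SLC25 transcripts, one per line, as the mean FPKM of 3 high IMF libraries (circles) and of 3 low IMF libraries (squares) on a log axis, ordered by the mean over all 6. SLC25A4 and SLC25A3 stand well above the rest, and for nearly all members the 2 symbols lie close together.

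Of the 43 members, 39 passed the filter on low counts. The remaining 4 were close to 0 everywhere. SLC25A41, a relative of the ATP-Mg/phosphate carriers, had 6 to 22 reads per high IMF library and 4 to 9 per low IMF library. SLC25A18, a glutamate carrier, had 2 to 9 and 0 to 16 reads, and SLC25A53 and SLC25A48 had at most 6 reads in any library. A count of 0 allows up to 3 reads, which is 0.0632 to 0.0768 CPM on unadjusted totals and covers counting error only. SLC25A31, the ADP/ATP carrier known from testis, was not analysed here.

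No carrier passed the test between the fat groups. edgeR's quasi-likelihood test called 0 of the 39 at an adjusted p under 0.05, where it called 0.00% of the 15933 genes tested. limma-voom also called 0 carriers (0.00% of all genes). DESeq2's Wald test called 0 carriers, against 1.16% of the genes given an adjusted p. The authors' deposited table likewise has 0 carriers at an adjusted p under 0.05, against 1.15% of its genes, and its smallest carrier value is 0.155 for SLC25A22. At an unadjusted p under 0.05 edgeR had 3 carriers, SLC25A22 and SLC25A47 higher and SLC25A27 lower in high IMF muscle. All genes tested gave 7.27% in either direction, 4.53% higher and 2.74% lower, so 3 of 39 (7.69%) is about the background. The groups did not overlap in CPM for 5 carriers, 3 higher and 2 lower in high IMF muscle (12.8% of 39). Of all genes, 6.86% were higher and 6.10% lower without overlap, so these counts too are near the background. On library totals without the TMM adjustment, SLC25A22 and SLC25A47 kept their separation and SLC25A16, SLC25A1 and SLC25A27 overlapped. On that scale 8 of 39 carriers were higher and 0 lower without overlap, beside 10.5% and 2.57% of all genes. The higher count was thus above the background on library totals and near it after TMM adjustment. This difference was not tested. Negative log2 folds were found for 21 of 39 carriers, beside 48.8% of all genes, and the median log2 fold was -0.026 for the carriers and 0.0085 for all genes.

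**Figure D2:**
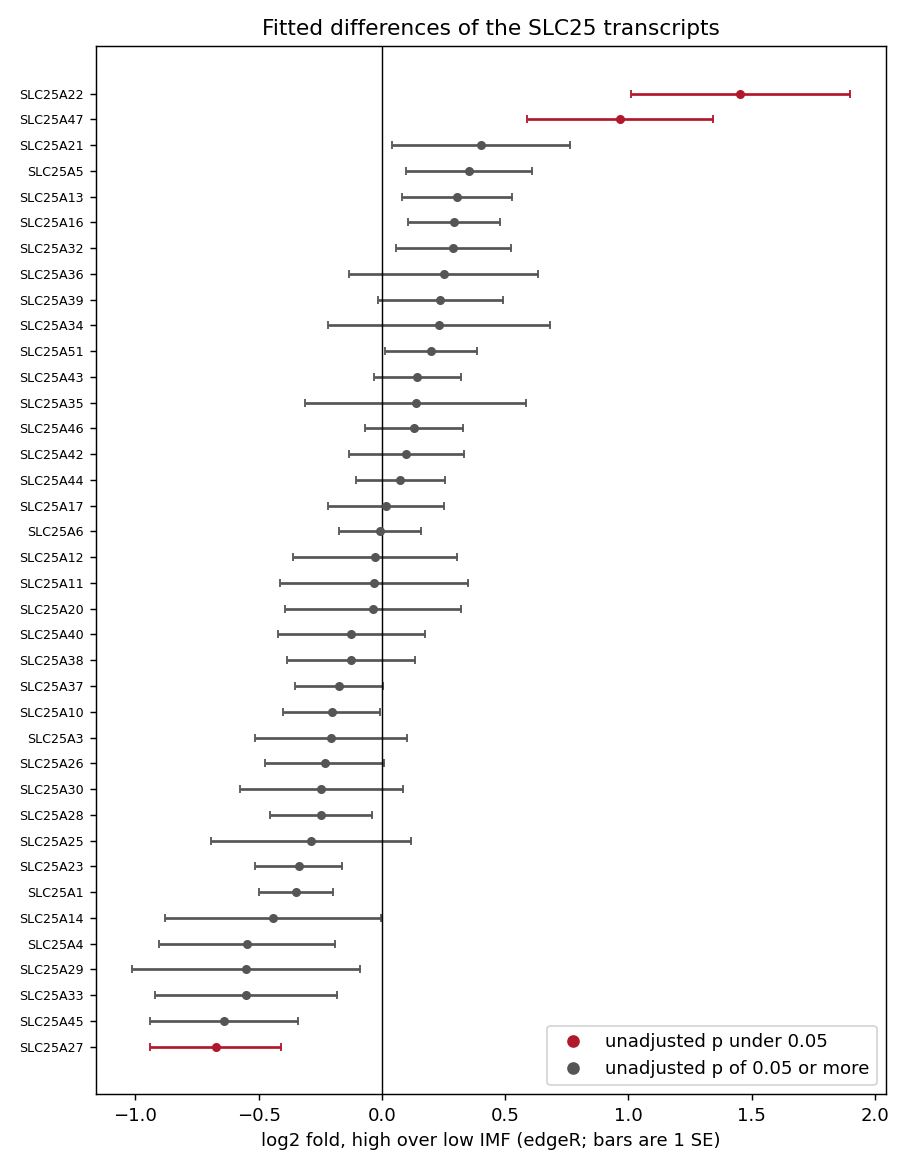
Fitted log2 fold (high over low IMF, edgeR) of 38 of the 39 tested carriers with a bar of 1 SE on each side, ordered by size. SLC25A22 and SLC25A47 lie at the upper end and SLC25A27 at the lower end; these 3 have an unadjusted p under 0.05, and for no tested carrier was the adjusted p under 0.536.

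The ADP/ATP carriers export the ATP made in the matrix. SLC25A4, the heart and muscle form, had 1533, 1471 and 3036 CPM in the high IMF libraries, against 3414, 2827 and 2591 CPM in the low IMF libraries. The values of high IMF replicates 1 and 2 lay below all 3 low IMF libraries, while high IMF replicate 3 lay within their range. The fitted difference was not past the threshold (log2 fold -0.55 ± 0.36 (SE), edgeR adjusted p = 0.851, 95% interval -1.39 to 0.29). Leaving out single libraries gave log2 folds from -0.98 without high IMF replicate 3 to -0.39 without high IMF replicate 2. SLC25A6, the form present in most tissues, measured 105, 109 and 105 CPM in high IMF muscle and 126, 97.02 and 97.6 CPM in low IMF muscle. This is a near-even level across the 6 libraries, with low IMF replicate 1 the highest (log2 fold -0.0090 ± 0.17 (SE), edgeR adjusted p = 0.994). SLC25A5, the form of dividing cells, was far rarer, with 7.46, 8.04 and 8.11 CPM in high IMF muscle and 8.25, 4.73 and 5.49 CPM in low IMF muscle. Only low IMF replicates 2 and 3 were set apart, below the other 4 (log2 fold 0.35 ± 0.26 (SE), edgeR adjusted p = 0.867). The 3 are close paralogs whose reads the authors' counting could split, so their separate levels are uncertain.

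SLC25A3, which imports the phosphate that ATP synthase joins to ADP and is also known to carry copper, had 685, 864 and 1403 CPM in the high IMF libraries, against 1029, 1247 and 1130.0 CPM in the low IMF libraries. Its lowest and its highest library were both from high IMF muscle, replicates 1 and 3 (log2 fold -0.21 ± 0.31 (SE), edgeR adjusted p = 0.9403). The 17 ATP synthase genes tested had levels of -0.51, -0.41 and 0.48 for high IMF replicates 1 to 3, against 0.25, 0.16 and 0.12 for low IMF replicates 1 to 3. Of these 17 genes, 16 had a negative log2 fold (median -0.21), and 0 had an unadjusted p under 0.05.

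The ATP-Mg/phosphate carriers adjust the adenine nucleotide content of the matrix and those described here are switched on by calcium. SLC25A25 measured 28.8, 76.1 and 82.6 CPM in high IMF muscle and 52.3, 90.96 and 85.3 CPM in low IMF muscle, with its lowest value in high IMF replicate 1 (log2 fold -0.29 ± 0.41 (SE), edgeR adjusted p = 0.939). Without that library its log2 fold was 0.043. SLC25A23 measured 42.8, 29.9 and 32.5 CPM in high IMF muscle and 42.6, 47.1 and 43.2 CPM in low IMF muscle, where high IMF replicate 1 lay among the low IMF values and replicates 2 and 3 below them (log2 fold -0.34 ± 0.18 (SE), edgeR adjusted p = 0.764). The row matched to SLC25A24, outside the name rule, measured 16.6, 13.7 and 5.39 CPM in high IMF muscle and 13.96, 8.94 and 9.97 CPM in low IMF muscle, with high IMF replicate 3 the lowest (log2 fold 0.12 ± 0.41 (SE), edgeR adjusted p = 0.974). SLC25A41 and SLC25A23 are neighbours in the RefSeq table. The treatment of strand is not given in the sources used here, so reads shared by overlapping neighbours cannot be told apart.

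The malate-aspartate shuttle carries the electrons of cytosolic NADH into the matrix, by the aspartate/glutamate carriers SLC25A12 and SLC25A13 and the oxoglutarate/malate carrier SLC25A11. SLC25A12, the muscle and brain form, had 171, 191 and 399 CPM in the high IMF libraries, against 262, 263 and 251 CPM in the low IMF libraries. SLC25A11 had 188, 227 and 518 CPM in the high IMF libraries, against 339, 319 and 297 CPM in the low IMF libraries. In both, high IMF replicates 1 and 2 were the lowest and high IMF replicate 3 the highest of the 6, so the high IMF group enclosed the whole low IMF range. Neither difference passed (log2 fold -0.026 ± 0.33 (SE), edgeR adjusted p = 0.992 for SLC25A12; log2 fold -0.031 ± 0.38 (SE), edgeR adjusted p = 0.992 for SLC25A11). SLC25A13, the form known from liver, was much less abundant, with 6.76, 7.801 and 9.32 CPM in high IMF muscle and 7.48, 5.77 and 6.08 CPM in low IMF muscle (log2 fold 0.30 ± 0.22 (SE), edgeR adjusted p = 0.867). The 4 shuttle enzymes GOT1, GOT2, MDH1 and MDH2 had levels of -0.35, -0.57 and 0.57 for high IMF replicates 1 to 3, against -0.026, 0.21 and 0.15 for low IMF replicates 1 to 3, lowest in high IMF replicates 1 and 2 and highest in replicate 3. None of the 4 had an unadjusted p under 0.05. GOT2, the matrix aminotransferase, measured 508, 577 and 1205 CPM in high IMF muscle and 436, 1302 and 1235 CPM in low IMF muscle, with low IMF replicate 1 the lowest of all.

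High IMF replicates 1 and 2 were below the other 4 libraries for 6 of 39 carriers, among them SLC25A3, SLC25A4, SLC25A11, SLC25A12 and SLC25A28, and for 11.2% of all genes. This pattern was noticed in the values and carries no test. The 10 carriers of highest FPKM had levels of -0.46, -0.28 and 0.39 for high IMF replicates 1 to 3, against 0.075, 0.23 and 0.13 for low IMF replicates 1 to 3, and the other 29 tested carriers -0.091, -0.0087 and 0.18 for high IMF replicates 1 to 3, against -0.0078, -0.018 and -0.092 for low IMF replicates 1 to 3. Of the 10, 9 had a negative log2 fold (median -0.11), and of the 29, 12 did (median 0.075). With library size only as the scaling, the median of all genes was 0.15 and that of the carriers 0.11, and SLC25A6, SLC25A11, SLC25A12 and SLC25A20 of these 10 took positive folds. Beside this, the 7 fast fibre markers found, of which 3 are also among the 8 muscle markers, had levels of -1.88, 0.085 and 0.79 for high IMF replicates 1 to 3, against 0.16, 0.56 and 0.44 for low IMF replicates 1 to 3 and summed to 17232 to 96984 CPM in the high and 60712 to 85172 CPM in the low IMF libraries. The 6 slow fibre markers found had levels of 0.58, -0.66 and -0.31 for high IMF replicates 1 to 3, against 0.44, -0.14 and -0.061 for low IMF replicates 1 to 3. None of these markers was at 0 in any library. In bulk muscle, fewer cells of a type and less RNA per cell cannot be told apart, and the part of fibre makeup in the carrier levels was not tested.

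**Figure D3:**
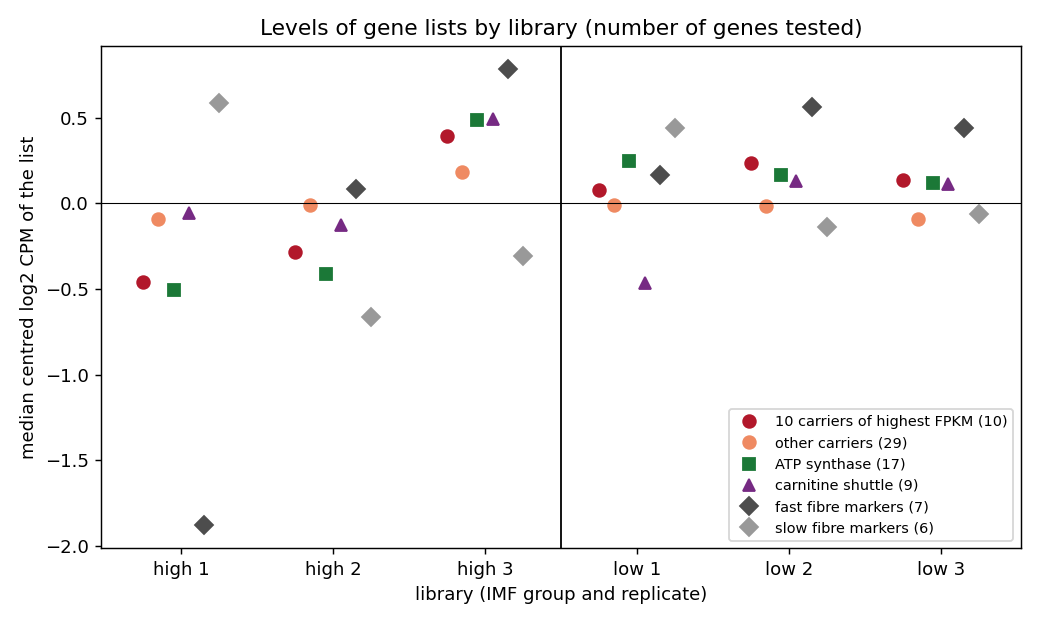
Level of 6 gene lists in each library, as the median over the list of log2 CPM centred on each gene's mean over the 6 libraries, with high IMF libraries left of the line and low IMF libraries right of it. The abundant carriers and ATP synthase are low in high IMF replicates 1 and 2 and highest in high IMF replicate 3, and the fast fibre markers are lowest in high IMF replicate 1.

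Among the carriers of di- and tricarboxylates, SLC25A1 exports citrate, the source of cytosolic acetyl units for fatty acid synthesis. It measured 35.3, 28.7 and 33.3 CPM in the high IMF libraries, against 37.9, 43 and 42.8 CPM in the low IMF libraries, and every high IMF library lay below every low IMF library after TMM adjustment. On unadjusted library totals high IMF replicate 1, at 40.9 CPM, was above the low IMF libraries, at 38.9 to 39.8 CPM. The difference did not pass (log2 fold -0.35 ± 0.15 (SE), edgeR adjusted p = 0.689, 95% interval -0.70 to 0.0036), and with library size only the log2 fold was -0.20. SLC25A10, the dicarboxylate carrier, measured 9.695, 9.88 and 10.4 CPM in high IMF muscle and 13.9, 9.86 and 10.7 CPM in low IMF muscle with overlap (log2 fold -0.20 ± 0.20 (SE), edgeR adjusted p = 0.909). SLC25A34, a muscle-rich member whose substrate is not settled, measured 150.3, 146 and 278 CPM in the high IMF libraries, against 71.5, 213 and 205 CPM in the low IMF libraries. Low IMF replicate 1 had 0.342 times the mean of low IMF replicates 2 and 3, and high IMF replicate 3 was the highest (log2 fold 0.23 ± 0.45 (SE), edgeR adjusted p = 0.957). Leaving out low IMF replicate 1 gave a log2 fold of -0.14, and leaving out high IMF replicate 3 gave -0.14. SLC25A21, the oxodicarboxylate carrier, and SLC25A35, its group's least abundant member, stayed under 8 CPM in every library, with log2 folds of 0.40 and 0.14.

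SLC25A20, the carnitine/acylcarnitine translocase, is the inner membrane step by which long-chain fatty acids reach beta-oxidation. It had 53.8, 52.1 and 72.7 CPM in the high IMF libraries, against 29.9, 77.7 and 75.4 CPM in the low IMF libraries. The high IMF values lay between those of low IMF replicate 1 and of low IMF replicates 2 and 3, and the fitted difference was near 0 (log2 fold -0.036 ± 0.36 (SE), edgeR adjusted p = 0.992, 95% interval -0.88 to 0.81). Its sign depended on single libraries, at -0.38 without low IMF replicate 1 and 0.17 once replicate 2 was left out instead. The 9 carnitine shuttle genes tested, from the acyltransferases to the plasma membrane carnitine transporter, had levels of -0.054, -0.13 and 0.49 for high IMF replicates 1 to 3, against -0.47, 0.13 and 0.11 for low IMF replicates 1 to 3, with low IMF replicate 1 the lowest. Of the 9, 8 had a positive log2 fold (median 0.25). ACACB, which makes the malonyl-CoA that holds back this shuttle, was the member with an unadjusted p under 0.05. It measured 86.9, 67.5 and 98.01 CPM in high IMF muscle and 50.4, 65.5 and 60.3 CPM in low IMF muscle (log2 fold 0.52 ± 0.19 (SE), edgeR adjusted p = 0.635). The muscle carnitine palmitoyltransferase CPT1B measured 219, 86.7 and 169 CPM in high IMF muscle and 124, 141 and 132 CPM in low IMF muscle, with overlap, and carnitine acetyltransferase CRAT 588, 639 and 1099 CPM in high IMF muscle and 238, 757 and 698 CPM in low IMF muscle.

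**Figure D4:**
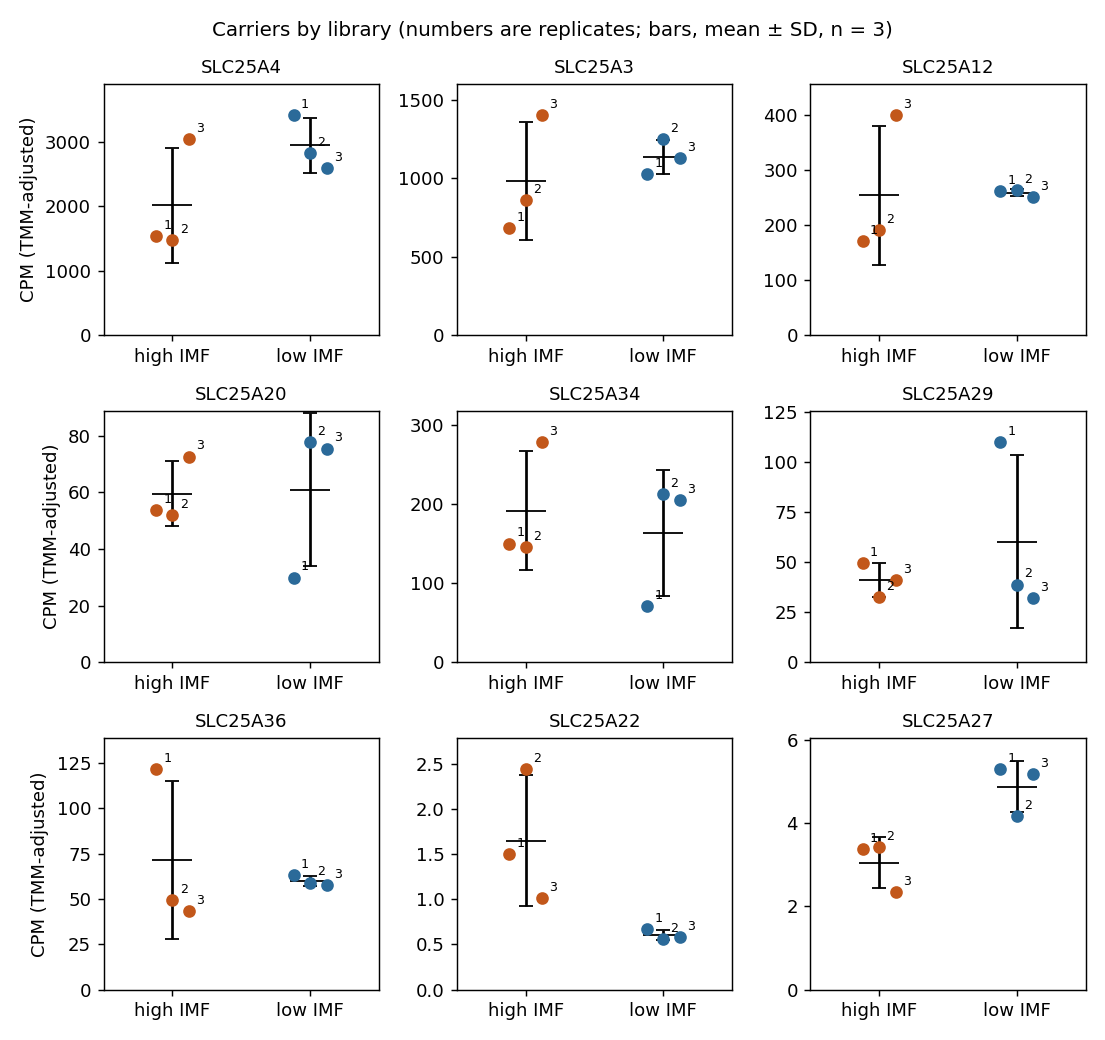
CPM of 9 carriers in each library (points, with the replicate number beside each), with the mean and SD of 3 libraries, high IMF on the left of each panel; every vertical axis starts at 0. The groups overlap for all but SLC25A22 and SLC25A27, and a single library stands away from the rest for SLC25A20 and SLC25A34 (low IMF replicate 1, low), SLC25A29 (low IMF replicate 1, high) and SLC25A36 (high IMF replicate 1, high).

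The smallest p in the family belonged to SLC25A22, a mitochondrial glutamate carrier. It had 1.502, 2.44 and 1.01 CPM in the high IMF libraries, against 0.667, 0.557 and 0.583 CPM in the low IMF libraries, from 35 to 130 reads per high IMF library and 23 to 32 per low IMF library. All 3 high IMF libraries exceeded all 3 low IMF libraries, a fitted 2.74-fold difference that did not pass (log2 fold 1.45 ± 0.44 (SE), edgeR adjusted p = 0.536, 95% interval 0.41 to 2.50). High IMF replicate 2 was the highest, and without it the log2 fold was 1.04. Markers of other cell types also differed between libraries. The 6 adipocyte markers summed to 52.9 to 426 CPM in the high and 134 to 183 CPM in the low IMF libraries, with 426 CPM in high IMF replicate 2 and leptin (LEP) at 0 in low IMF replicate 1. Those of macrophage and myeloid cells, 6 of 6 found and none at 0, summed to 16.5 to 90.2 CPM in the high and 22.4 to 23.4 CPM in the low IMF libraries. The 6 fibroblast markers, none at 0, summed to 206 to 1229.9 CPM in the high and 257 to 646 CPM in the low IMF libraries. The 6 lymphocyte markers, none at 0, summed to 15.1, 9.28 and 8.37 CPM in high IMF replicates 1 to 3 and 7.71, 2.33 and 1.53 CPM in low IMF replicates 1 to 3. Their groups did not overlap after TMM adjustment only. On unadjusted library totals high IMF replicate 3 lay below low IMF replicate 1. Of the adipocyte and of the myeloid markers, 2 of 6 each were higher at an unadjusted p under 0.05. So were 1 of 6 fibroblast and 3 of 5 tested lymphocyte markers, beside 4.53% of all genes. The adipocyte, myeloid and fibroblast sums were lowest in high IMF replicate 3. Endothelial and smooth muscle markers mostly went the other way, with negative log2 folds for 5 of 6 and 4 of 4. The endothelial sums were 665, 534 and 357 CPM in high and 725, 706 and 701 CPM in low IMF replicates 1 to 3, without overlap after TMM adjustment only. On unadjusted library totals high IMF replicate 1 lay above the low IMF libraries. The smooth muscle sums were 278 to 430 and 325 to 981 CPM, with overlap. At an unadjusted p under 0.05, 3 endothelial and 2 smooth muscle markers were lower, beside 2.74% of all genes. At an adjusted p under 0.05, DESeq2's Wald test called 1 adipocyte and 1 myeloid marker higher and 1 endothelial and 1 smooth muscle marker lower. It called 0 fibroblast and 0 lymphocyte markers, beside 1.16% of the genes given an adjusted p. The part of these cells in the difference was not tested.

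Of the carriers of other amino acids, SLC25A29 moves basic amino acids. It measured 49.7, 32.7 and 41.2 CPM in the high IMF libraries, against 109.9, 38.9 and 32.01 CPM in the low IMF libraries. Low IMF replicate 1 had 3.1 times the mean of low IMF replicates 2 and 3, and the log2 fold of -0.55 ± 0.46 (SE, edgeR adjusted p = 0.887) was 0.20 without that library. SLC25A44, which takes branched-chain amino acids into mitochondria, measured 13.6, 16.4 and 17.3 CPM in high IMF muscle and 13.5, 17.01 and 14.3 CPM in low IMF muscle, nearly level over all 6 (log2 fold 0.075 ± 0.18 (SE), edgeR adjusted p = 0.966). Of 10 genes of branched-chain amino acid breakdown, 9 had a negative log2 fold (median -0.19). BCKDHB, a subunit of the branched-chain ketoacid dehydrogenase, had an unadjusted p under 0.05, with 23.03, 24.9 and 20.2 CPM in high IMF muscle and 31.5, 27.9 and 29.7 CPM in low IMF muscle (log2 fold -0.39 ± 0.15 (SE), edgeR adjusted p = 0.641). SLC25A38, a glycine carrier needed for haem synthesis, ranged over 11.6 to 16.6 CPM in high and 11.5 to 20.6 CPM in low IMF muscle.

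The nucleotide and cofactor carriers were 9 tested members, of which 7 had a positive log2 fold and 0 an unadjusted p under 0.05. SLC25A36, a pyrimidine nucleotide carrier, had 122, 49.2 and 43.4 CPM in the high IMF libraries, against 63.3, 59.04 and 57.7 CPM in the low IMF libraries. High IMF replicate 1 alone was high, at 2.62 times the mean of the other high IMF libraries, which both lay below the low IMF group. The log2 fold was 0.25 ± 0.38 (SE, edgeR adjusted p = 0.943) and became -0.39 without high IMF replicate 1. Its relative SLC25A33 measured 4.44, 2.74 and 5.704 CPM in high IMF muscle and 3.96, 7.44 and 7.44 CPM in low IMF muscle, with high IMF replicate 2 the lowest (log2 fold -0.55 ± 0.37 (SE), edgeR adjusted p = 0.852). SLC25A42, the coenzyme A carrier, measured 66.6, 47.3 and 60.98 CPM in high IMF muscle and 39, 63.96 and 60.3 CPM in low IMF muscle, with low IMF replicate 1 the lowest (log2 fold 0.099 ± 0.23 (SE), edgeR adjusted p = 0.966). SLC25A16, linked to coenzyme A supply, was the third member higher in high IMF muscle without overlap after TMM adjustment, at 8.64, 9.68 and 9.32 CPM in high IMF muscle and 8.15, 7.83 and 6.59 CPM in low IMF muscle (log2 fold 0.29 ± 0.19 (SE), edgeR adjusted p = 0.844). SLC25A17, SLC25A26 (S-adenosylmethionine), SLC25A32 (folate and FAD) and SLC25A51 (NAD), overlapped between groups, with log2 folds from -0.23 for SLC25A26 to 0.29 for SLC25A32.

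The iron carriers SLC25A37 and SLC25A28, called mitoferrins, feed haem and iron-sulphur cluster synthesis. SLC25A28, the form found outside red cell precursors, measured 42.1, 44.6 and 67.4 CPM in high IMF muscle and 57.9, 63.8 and 61.2 CPM in low IMF muscle, where high IMF replicates 1 and 2 were the lowest and replicate 3 the highest (log2 fold -0.25 ± 0.21 (SE), edgeR adjusted p = 0.887). SLC25A37 measured 37.6, 28.7 and 37.6 CPM in high IMF muscle and 45.1, 36.9 and 35.2 CPM in low IMF muscle with overlap (log2 fold -0.17 ± 0.18 (SE), edgeR adjusted p = 0.919). SLC25A39 and SLC25A40, glutathione carriers of human and mouse cells, went apart in low IMF replicate 1. SLC25A39 measured 31.9, 34.1 and 46.01 CPM in high IMF muscle and 21.6, 36.96 and 36.4 CPM in low IMF muscle, with that library the lowest (log2 fold 0.24 ± 0.25 (SE), edgeR adjusted p = 0.919). SLC25A40 measured 2.72, 3.64 and 3.24 CPM in high IMF muscle and 4.63, 2.96 and 2.87 CPM in low IMF muscle, with the same library the highest (log2 fold -0.12 ± 0.30 (SE), edgeR adjusted p = 0.966). Of 12 tested genes of mitochondrial iron use, 8 had a negative log2 fold and 0 had an unadjusted p under 0.05. Its member of smallest p, the transporter ABCB8, measured 23.1, 16.95 and 26.8 CPM in high IMF muscle and 19.8, 17.96 and 15.5 CPM in low IMF muscle.

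The uncoupling-like members resemble the uncoupling proteins, which let protons back into the matrix. SLC25A27 (UCP4), best known from brain, had 3.38, 3.43 and 2.35 CPM in the high IMF libraries, against 5.29, 4.17 and 5.18 CPM in the low IMF libraries. Every high IMF library was below every low IMF library after TMM adjustment only, a difference that did not pass (log2 fold -0.67 ± 0.26 (SE), edgeR adjusted p = 0.642, 95% interval -1.29 to -0.055). With library size only its log2 fold was -0.51. SLC25A30, the most abundant of the group, measured 69.8, 113 and 159.6 CPM in high IMF muscle and 96.6, 157 and 151 CPM in low IMF muscle, with high IMF replicate 1 the lowest (log2 fold -0.25 ± 0.33 (SE), edgeR adjusted p = 0.937). SLC25A14 (UCP5) stayed under 2 CPM in every library, with a log2 fold of -0.44. UCP2, the form of immune and many other cells, lay outside the name rule and had 20.03, 15.6 and 13.3 CPM in the high IMF libraries, against 6.001, 9.33 and 9.07 CPM in the low IMF libraries. These groups did not overlap, and the difference did not pass (log2 fold 1.01 ± 0.25 (SE), edgeR adjusted p = 0.51). The part of myeloid and lymphoid cells, whose summed markers are given with SLC25A22, in the UCP2 difference was not tested. UCP3, the muscle form, had 24.03, 81.6 and 146 CPM in the high IMF libraries, against 4.0, 309 and 319 CPM in the low IMF libraries. That is the widest range of any family row tested, and low IMF replicates 2 and 3 were above, and low IMF replicate 1 below, all high IMF libraries (log2 fold -1.33 ± 1.25 (SE), edgeR adjusted p = 0.906). UCP1, of brown fat, had 0 to 4 reads per high IMF library and 0 to 1 per low IMF library.

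Among the remaining members, SLC25A47, known as a liver-rich carrier in human and mouse, was the second with an unadjusted p under 0.05. It had 1.502, 2.12 and 2.58 CPM in the high IMF libraries, against 1.29, 0.7998 and 1.07 CPM in the low IMF libraries, on 68 to 113 reads per high and 33 to 62 per low IMF library. All high IMF values were above all low IMF values, and the difference did not pass (log2 fold 0.97 ± 0.38 (SE), edgeR adjusted p = 0.642, 95% interval 0.080 to 1.85). SLC25A47 and SLC25A29 are neighbours in the RefSeq table. Low IMF replicate 1 was the highest of all libraries for SLC25A29. For SLC25A47 it was the highest low IMF library and lay below every high IMF library. Whether the 2 genes share reads was not tested. SLC25A45 measured 9.34, 16.8 and 15.5 CPM in high IMF muscle and 29.04, 19.4 and 16.5 CPM in low IMF muscle, with low IMF replicate 1 the highest and high IMF replicate 1 the lowest (log2 fold -0.64 ± 0.30 (SE), edgeR adjusted p = 0.734). SLC25A43 and the outer membrane member SLC25A46, which acts in mitochondrial shape, had log2 folds of 0.14 and 0.13 and overlapped between groups. MTCH1 and MTCH2, outer membrane relatives of which MTCH2 is known to insert proteins, also overlapped. MTCH1 measured 218, 179 and 239 CPM in high IMF muscle and 304, 180.3 and 179 CPM in low IMF muscle. MTCH2 measured 51.2, 66.4 and 80.9 CPM in high IMF muscle and 56.3, 73.1 and 75.1 CPM in low IMF muscle.

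Partners of the carriers gave no call either. Of 12 genes of the carrier import machinery, outer membrane TOMM genes included, 11 had a negative log2 fold (median -0.12) and 0 had an unadjusted p under 0.05. The chaperone TIMM9, which guides carriers across the intermembrane space, measured 9.23, 13.7 and 15 CPM in high IMF muscle and 18.1, 16.5 and 15.2 CPM in low IMF muscle (log2 fold -0.40 ± 0.22 (SE), edgeR adjusted p = 0.795). Of 7 pore and energy shuttle genes, 6 had a negative log2 fold and 0 had an unadjusted p under 0.05. The 2 of smallest p were TSPO, the positive one (log2 fold 0.79 ± 0.35 (SE), edgeR adjusted p = 0.702), and VDAC3 (log2 fold -0.77 ± 0.37 (SE), edgeR adjusted p = 0.740). Mitochondrial creatine kinase CKMT2, which works beside SLC25A4, measured 742, 633 and 1872 CPM in high IMF muscle and 529, 1846 and 1704 CPM in low IMF muscle. MCU, the pore of the calcium uniporter, was the member of its 6 tested genes with an unadjusted p under 0.05, at 94.9, 87.9 and 88.02 CPM in high IMF muscle and 73.03, 64.2 and 60.8 CPM in low IMF muscle (log2 fold 0.45 ± 0.15 (SE), edgeR adjusted p = 0.571). The pyruvate carrier and sideroflexin list had 3 positive and 4 negative log2 folds among 7, none with an unadjusted p under 0.05.

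Spread within a fat group was wide for many members. The highest library exceeded the lowest by over 1.5 times within the high IMF group for 20 of 39 carriers, beside 56.1% of all genes, and within the low IMF group for 15 of 39, beside 44.2%. The fitted fold between groups was past 1.5 in either direction for 4 of 39, SLC25A22, SLC25A47, SLC25A27 and SLC25A45, beside 18.7% of all genes. High IMF replicate 3 was the highest library for 16 carriers and high IMF replicate 1 the lowest for 13, where all genes gave 22.3% and 19.7%. Low IMF replicate 1 was the highest for 11 and the lowest for 8 (23.4% and 21.1% of all genes). It differed by over 1.5 times from the mean of low IMF replicates 2 and 3 for 14 carriers. These were 7 above, beside 16.9% of all genes, and 7 below, beside 18.5%. Leaving out a library moved the number of carriers at an unadjusted p under 0.05. The higher ones were 2 of 39 with all libraries. They were 0 of 40 (3.15% of all genes) without high IMF replicate 2, 1 of 41 (7.04% of all genes) without high IMF replicate 3, and 3 of 40 (5.58% of all genes) without low IMF replicate 1. Omitting low IMF replicate 2 gave 1 of 41 (2.67% of all genes), and omitting low IMF replicate 3 gave 1 of 41 (2.83% of all genes). The lower ones were 1 of 39 with all libraries. Without high IMF replicate 1 they were 4 of 39 (3.84% of all genes), without high IMF replicate 3 5 of 41 (5.43% of all genes), without low IMF replicate 1 2 of 40 (3.53% of all genes), and without low IMF replicate 2 0 of 41 (1.66% of all genes). In each such fit 0 carriers had an adjusted p under 0.05.

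**Figure D5:**
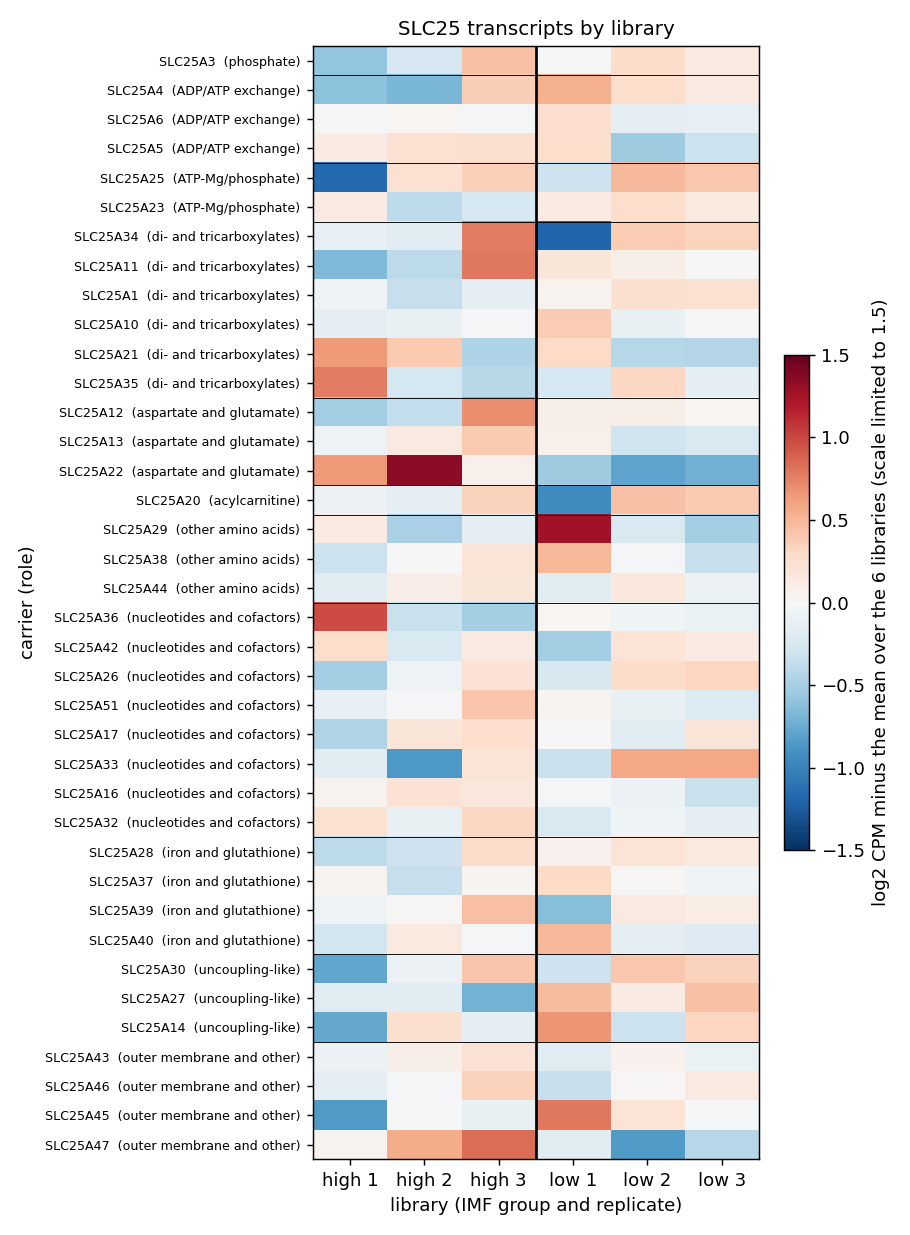
Log2 CPM of 38 of the 39 tested carriers in each library, centred on each gene's mean over the 6 libraries (red above, blue below), grouped by role and with high IMF libraries left of the line. Single squares stand out, such as SLC25A25 in high IMF replicate 1 and SLC25A20, SLC25A29 and SLC25A34 in low IMF replicate 1. The rows of SLC25A22, SLC25A47 and SLC25A16 (higher in high IMF) and of SLC25A1 and SLC25A27 (lower) follow the fat groups.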

How the data were processed

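RNA libraries of longissimus dorsi, 3 of high and 3 of low IMF content by their titles, were analysed from the deposited series table. The authors' whole-number read counts per gene are raw. HISAT2 is named as the aligner and mm9, a mouse build, as the genome per the submitters' processing notes, whereas the deposited gene names and descriptions are equine; the sources used here give no counter, annotation or strand setting, so no coordinates are printed. The series and sample texts name different sequencers, per the labels. The authors' deposited FPKM values divide by gene length and depth and served only to describe levels, by gene and by fat group, and not for any test. The authors also deposited a ratio (fold change), its log2 value, a p-value and an adjusted p-value per gene from their comparison. The per-sample files repeated the same counts and FPKM (0 cells differed). Unnamed rows, 726 holding 0.704% of reads, stayed in the fit.

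Counts were tested across all genes with edgeR 4.0.16 (R 4.3.3; TMM, filterByExpr, quasi-likelihood F-test, Benjamini-Hochberg, threshold 0.05), which kept 15933 genes. SE is the absolute log2 fold over the root of F. The procedure was tested on simulated counts with the same fixed dispersion for every gene, which cannot show its power at the spread of these libraries. Alternatives were DESeq2 1.42.0 size factors or Wald test, library size only, no filter, a stricter filter (mean of 1 CPM and 10 reads in 3 libraries), limma-voom 3.58.1, the replicate number as a block, each library left out, and low IMF replicates 2 and 3 summed. Depth was 39052998 to 47494157 reads. Members, roles and lists were chosen with earlier results of these data known. Members given with values in every library are a fixed set of 24 names (22 with a member row), the 10 of highest mean FPKM, the 10 of smallest p and any past the threshold, 28 in all. One tested carrier enters the counts and is not reported here by name.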

Additional observations from a re-analysis of the deposited data

How the results depend on the processing

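No carrier had an adjusted p under 0.05 under any setting run. With library size only, the median log2 fold of the carriers was 0.11 (0.15 for all genes) in place of -0.026. On that scale 8 carriers were higher and 0 lower without overlap (10.5% and 2.57% of all genes), in place of 3 and 2. Leaving out single libraries gave medians of -0.14 to -0.0068, 0 to 3 carriers higher and 0 to 5 lower at an unadjusted p under 0.05, and 0 to 3 genes of the whole table at an adjusted p under 0.05, against 194 by the DESeq2 Wald test. At an unadjusted p under 0.05 the lower carriers numbered 2 with DESeq2 size factors and 0 with library size only, with the replicate block and with low IMF replicates 2 and 3 summed. The higher ones numbered 1 with the replicate block and 1 with the sum. The share of all genes at that threshold is not given for these settings, so these counts cannot be set against a background. Folds near 0 changed sign. With library size only they were 0.12 for SLC25A6, 0.027 for SLC25A11, 0.046 for SLC25A12 and 0.11 for SLC25A20. SLC25A6 was at 0.0039 with the stricter filter, 0.0034 with limma-voom and 0.0018 with the replicate block, and SLC25A20 at 0.071 with limma-voom, 0.069 with the replicate block and 0.16 with the sum. With single libraries left out, log2 folds of changing sign ranged over -0.078 to 0.11 for SLC25A6, -0.52 to 0.17 for SLC25A12, -0.62 to 0.21 for SLC25A11, -0.38 to 0.17 for SLC25A20, -0.39 to 0.50 for SLC25A36, -0.54 to 0.043 for SLC25A25, -0.11 to 0.23 for SLC25A42, -0.14 to 0.47 for SLC25A34, -0.0050 to 0.17 for SLC25A44, -0.86 to 0.20 for SLC25A29 and -0.25 to 0.12 for SLC25A40. The cause was not tested. Same-numbered libraries of the groups did not deviate together throughout (correlations of deviations 0.185, 0.14 and 0.0132 for replicates 1 to 3). High IMF replicate 1 correlated best with its own number, and high IMF replicates 2 and 3 with another number. Low IMF replicates 2 and 3 were much alike, so these correlations cannot decide whether the replicate numbers mark a pairing. Depth limits the rare members, since SLC25A22 and SLC25A47 rest on 23 to 130 reads per library.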
